A study of Mus musculus with 4 samples.

Results

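The genes described here encode the proteins that make miRNAs and carry out miRNA-mediated silencing. They are Drosha, Dgcr8, Xpo5, Dicer1, Ago1, Ago2, Ago3, Tnrc6a, Tnrc6b and Tnrc6c, taken by their symbols from the count table, and they were 10 of its 24421 genes. All 10 had at least 10 reads in at least 1 library and so entered every fit. RNA-seq measured polyadenylated transcripts of whole embryos of ICR mice in 4 libraries, namely 1 of wild-type embryos at embryonic day 7.5 (E7.5 WT), 1 of wild-type embryos at embryonic day 8.5 (E8.5 WT) and 2 of Ddx6 -/- embryos at embryonic day 8.5 (KO1 and KO2). The KO allele lacks a floxed exon of Ddx6 that a ubiquitous CAG-Cre removed in the parental line, so the deletion was present in every tissue from the start of development. By the study's description each KO library was a pool, of 2 embryos in KO1 (1 from before and 1 from after head-fold formation) and of 3 embryos in KO2 (all from before head-fold formation), and genotypes were read from extraembryonic tissue or yolk sac. How many embryos made up each WT library is not given in the sources used here.

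A primary miRNA transcript is folded into hairpins that the Microprocessor, made of the nuclease DROSHA and its RNA-binding partner DGCR8, cuts out in the nucleus. Exportin-5 (Xpo5) carries the hairpin to the cytoplasm, where DICER1 trims it to a short duplex, and a strand of that duplex is loaded into an Argonaute protein. The Argonaute pairs with target mRNAs through the miRNA seed and binds a TNRC6 (GW182) protein, which recruits the deadenylase complexes, and through them DDX6, the helicase missing in the KO embryos. DGCR8 is the member whose loss the study used as its model of a block in the miRNA pathway.

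Libraries held between 8198402 (KO1) and 12562640 (E8.5 WT) reads in genes. Reads of Ddx6 itself numbered 2943 and 5715 in the WT libraries of E7.5 and E8.5 and 706 and 929 in KO1 and KO2, a log2 change from E8.5 WT of -2.45 in KO1 and -2.60 in KO2. The KO libraries also differed from each other in cell type markers. The 5 epiblast and primitive streak markers summed to 926, 150, 241 and 898 CPM (TMM-normalised reads on a common library total) in E7.5 WT, E8.5 WT and then KO1 and KO2, and the 4 somite and paraxial mesoderm markers to 37.2, 202, 226 and 15.4. The sums of the 8 trophoblast markers were 63.2, 19.6, 30.3 and 835 CPM, with Prl3b1 and Tpbpa at 0 in every library, and those of the 4 maternal decidua markers were 146, 7.79, 16.3 and 230.2 CPM. The 6 primitive erythroid markers summed to 31.3, 246, 2.39 and 5.09 CPM. Hba-x had 0 reads in E7.5 WT and KO2, and Hbb-y had 0 in all libraries but E8.5 WT. Single markers could go against their sum. Gata1 and Alas2 were highest in E7.5 WT (17.2 and 11.2 CPM, against 5.27 and 5.43 in E8.5 WT). Tbx6 of the somite list was also highest there (29.4 CPM, against 17.7 in E8.5 WT). Aldh1a2 alone gave 140 and 166 CPM of the somite sums of E8.5 WT and KO1. The part of these differences in the results below was not tested.

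The first comparison asked whether the machinery itself changed in embryos without DDX6 (KO1 and KO2, each against E8.5 WT). None of the 10 members passed a log2 change of 1 in either direction, the criterion of the study's methods, in KO1 or in KO2. Over all 14393 genes tested, 8.25% passed it in KO1, 15.4% in KO2 and 5.22% in both in the same direction. The members' log2 changes lay between -0.28 (Ago3 in KO2) and 0.37 (Ago1 in KO2), and their medians were -0.043 in KO1 and -0.0074 in KO2, beside 0.00075 and 0.0039 over all genes. With edgeR's quasi-likelihood test the members' adjusted p-values ran from 0.663 to 0.967, and 0 members passed. That test called 0% of all genes at an adjusted p under 0.05 and 7.36% at an unadjusted p under 0.05, the latter including 1 member, Ago1. With DESeq2 0 members and 0.215% of all genes passed at an adjusted p under 0.05. Each WT stage had 1 library, so the spread in these tests came from the KO libraries alone.

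A narrower question is which members differed from E8.5 WT by more than the error of counting reads. The exact 95% interval of the log2 change lay above 0 in both KO libraries for 3 members (Ago1, Tnrc6a and Tnrc6b), as for 14.2% of all genes tested. It lay below 0 in both for 1 member (Xpo5), as for 15.2% of all genes tested. The remaining 6 members had an interval that held 0 in at least 1 KO library. These intervals cover counting error only and not differences between embryos, and they are narrower for genes with more reads.

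**Figure D1:**
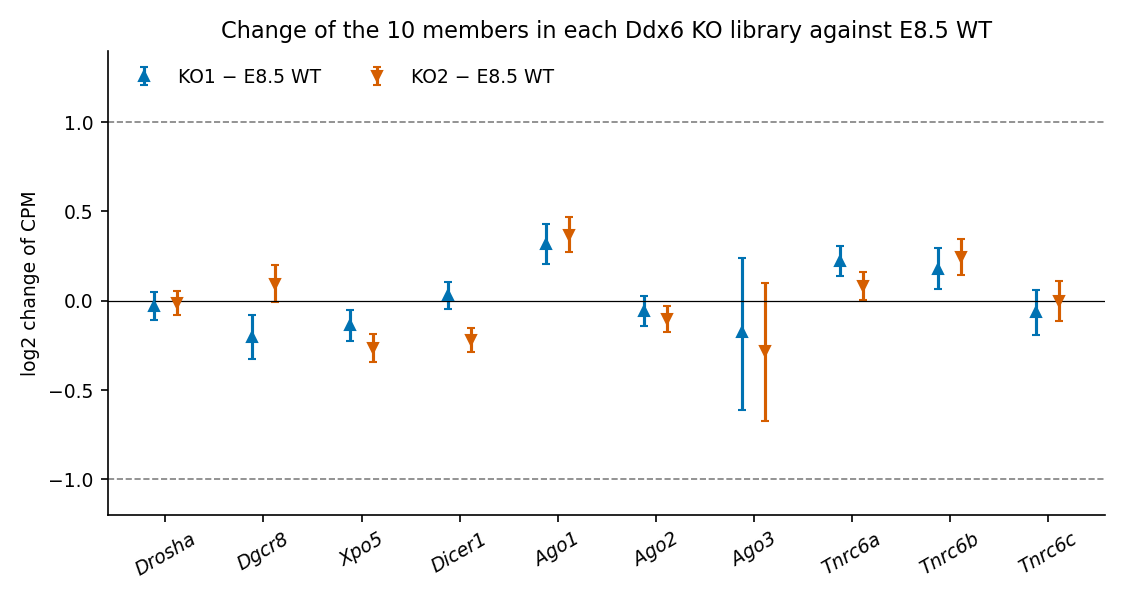
Log2 change of normalised CPM (vertical axis) of each member in the KO libraries relative to E8.5 WT, with bars for the exact 95% interval of the read ratio (counting error only) and dashed lines at changes of -1 and 1. All points lie between -0.28 and 0.37, and both Ago1 points stand above 0.

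Drosha, the Microprocessor nuclease (chromosome 15, 12824815 to 12935291, plus strand, GRCm38), had levels of 351 and 283 CPM in the WT libraries of E7.5 and E8.5 and of 278 and 281 CPM in KO1 and KO2. The E8.5 libraries lay close together whatever the genotype, and E7.5 WT stood above them. The mean log2 change of the KO libraries from E8.5 WT was -0.021 ± 0.012 (SD, n = 2). The 95% interval of the difference from the DESeq2 standard error ran from -0.43 to 0.36.

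Dgcr8 (chromosome 16, 18253948 to 18289246, minus strand) had levels of 134, 118, 102 and 126 CPM in E7.5 WT, E8.5 WT and then KO1 and KO2. E8.5 WT lay between the KO libraries, with log2 changes of -0.20 in KO1 and 0.095 in KO2, and the KO libraries differed from each other by 0.30 (95% counting interval 0.17 to 0.42). The reads of Drosha per read of Dgcr8 were 2.62 and 2.40 in the WT libraries of E7.5 and E8.5 and 2.71 and 2.23 in KO1 and KO2. The 95% intervals of this ratio were 2.26 to 2.56 in E8.5 WT, 2.50 to 2.93 in KO1 and 2.1 to 2.4 in KO2, so the KO libraries did not overlap each other and both overlapped E8.5 WT.

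Exons of Dgcr8 hold 2 annotated hairpins, Gm24572 and Mir1306. Dgcr8 mRNA is known as a substrate of the Microprocessor that its own product helps to form. Annotated hairpins also lie in an exon of Tnrc6b (Mir5113) and within the span of Xpo5 (Mir693), and are not shown. The mature miRNA of Mir1306 is shown because it is encoded within a member's own transcript. It was taken from RefSeq (GRCm38.p6, chromosome 16, 18284248 to 18284268, minus strand), with the seed (bases 2 to 8) in capitals as in all sequences here.
mmu-miR-1306-3p: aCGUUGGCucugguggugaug
The row of the Mir1306 hairpin held 0 reads in all 4 libraries. By default featureCounts assigns a read that overlaps both a gene and a hairpin listed as a gene of its own to neither, so cleavage of the Dgcr8 transcript cannot be read from this row.

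Xpo5, the export receptor (chromosome 17, 46202782 to 46243598, plus strand), had 209, 233, 212 and 194 CPM in E7.5 WT, E8.5 WT and then KO1 and KO2. Both KO libraries were below E8.5 WT and near E7.5 WT, and KO2 was the lowest of the 4. The log2 changes from E8.5 WT were -0.14 (95% counting interval -0.22 to -0.051) in KO1 and -0.26 (-0.34 to -0.18) in KO2, with a mean of -0.20 ± 0.089 (SD, n = 2). The edgeR quasi-likelihood test gave an adjusted p of 0.682.

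Dicer1, the cytoplasmic nuclease (chromosome 12, 104687742 to 104751952, minus strand), had 170.2, 295, 301 and 253 CPM in the same order. E7.5 WT was the lowest library, KO1 was level with E8.5 WT, and KO2 lay between the WT stages. The log2 change from E8.5 WT was 0.030 in KO1 (95% counting interval -0.044 to 0.10) and -0.22 in KO2 (-0.29 to -0.15). The reads of Drosha per read of Dicer1 were 2.06 in E7.5 WT and 0.961, 0.922 and 1.11 in E8.5 WT, KO1 and KO2. The balance between the nuclear and the cytoplasmic nuclease thus separated E7.5 WT from the 3 libraries of E8.5 by more than counting error, with a 95% interval of 1.96 to 2.18 in E7.5 WT and no interval reaching above 1.17 in the others.

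Ago1 (chromosome 4, 126435012 to 126468583, minus strand) was the member with the largest mean change from E8.5 WT. Its levels were 74.7 and 118 CPM in the WT libraries of E7.5 and E8.5 and 147 and 153 CPM in KO1 and KO2. Both KO libraries lay above both WT libraries. The log2 changes from E8.5 WT were 0.32 (95% counting interval 0.21 to 0.43) in KO1 and 0.37 (0.27 to 0.47) in KO2, or 1.25-fold and 1.29-fold, with a mean of 0.34 ± 0.038 (SD, n = 2). The edgeR quasi-likelihood test gave an adjusted p of 0.663 (0.0478 before adjustment), and the unadjusted p was no longer under 0.05 with DESeq2 size factors, with no filter on low counts or with the DESeq2 test. The 95% interval of the difference from the DESeq2 standard error ran from -0.18 to 0.84 and held 0.

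Ago2, the Argonaute that can itself cut a fully paired target (chromosome 15, 73095844 to 73184935, minus strand), had 133, 252, 242 and 235 CPM in E7.5 WT, E8.5 WT and then KO1 and KO2. The 3 libraries of E8.5 lay close together and far above E7.5 WT. The mean log2 change of the KO libraries from E8.5 WT was -0.079 ± 0.030 (SD, n = 2), with a 95% interval from the DESeq2 standard error of -0.52 to 0.34.

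Ago3 (chromosome 4, 126331704 to 126429556, minus strand) had the fewest reads of the members, 32, 127, 76 and 103 for E7.5 WT, E8.5 WT and then KO1 and KO2, or 2.68, 10.3, 9.09 and 8.46 CPM. All 3 libraries of E8.5 were above E7.5 WT. Its counting intervals against E8.5 WT were the widest of the members and held 0 in both KO libraries, from -0.61 to 0.24 in KO1 and from -0.67 to 0.10 in KO2. At this depth a change of Ago3 within those bounds was not detectable. Ago4, the remaining Argonaute of the mouse, is not a member and had 24, 28, 21 and 34 reads.

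Since Ago1 and Ago2 were counted in the same library, their ratio does not depend on the normalization. The reads of Ago1 per read of Ago2 were 0.562 and 0.469 in the WT libraries of E7.5 and E8.5 and 0.608 and 0.650 in KO1 and KO2, a ratio looked at after the single genes had been seen. The 95% intervals of KO1 (0.566 to 0.653) and KO2 (0.613 to 0.690) lay above that of E8.5 WT (0.441 to 0.4995), and that of KO1 overlapped E7.5 WT (0.517 to 0.611). On the scale of CPM per kilobase of exon, Ago1 held 48.1% of the total of the 4 Argonautes in the WT library of E7.5 and 43.5% in that of E8.5, and 49.96% and 51.6% in the KO libraries. Ago2 held 49.5%, 53.7%, 47.5% and 45.9% in that order. Ago2 was thus the leading Argonaute transcript in both WT libraries and Ago1 in both KO libraries on this scale. With exon lengths of RefSeq-matched transcripts alone Ago1 also led in E7.5 WT (50.5% against 47.1%), so only the E8.5 order of the genotypes held for both length models. Ago3 and Ago4 together stayed a small part of the total, with at most 1.86% for Ago3 and at most 1.51% for Ago4 in any library.

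**Figure D2:**
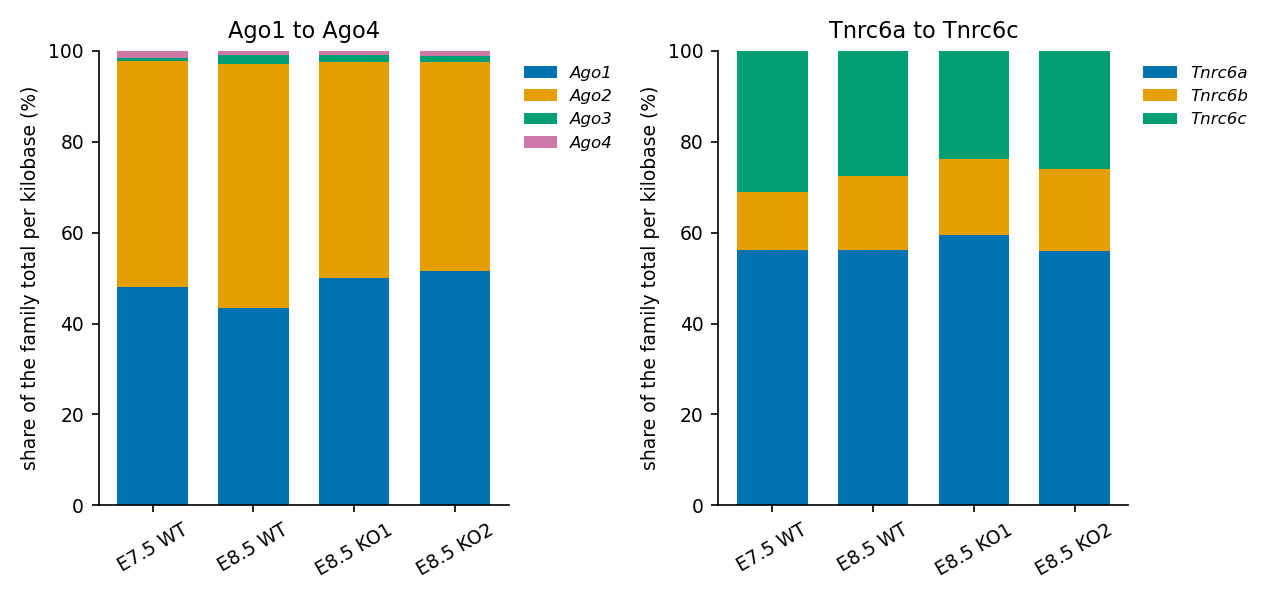
Share of each gene in its family's total of CPM per kilobase of exon (vertical axis, percent, from 0 to 100) in the 4 libraries, for the Argonautes (left) and the Tnrc6 genes (right). Ago1 held 43.5% in E8.5 WT and 49.96% and 51.6% in the KO libraries, and Tnrc6a held over 55% of its family in each library.

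The Tnrc6 genes encode the GW182 scaffolds that link Argonaute to deadenylation. Tnrc6a (chromosome 7, 123123885 to 123195296, plus strand) had 166, 213, 249 and 225 CPM in E7.5 WT, E8.5 WT and then KO1 and KO2. Tnrc6b (chromosome 15, 80711313 to 80941085, plus strand) had 70.4, 115, 130.3 and 136 CPM, and Tnrc6c (chromosome 11, 117654289 to 117763439, plus strand) had 93.0, 106, 101 and 106 CPM. For Tnrc6a and Tnrc6b both KO libraries lay above both WT libraries, whereas Tnrc6c of the KO libraries lay between or level with the WT values.

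The log2 changes of Tnrc6a from E8.5 WT were 0.22 in KO1 and 0.080 in KO2, the latter with a counting interval of 0.0028 to 0.16 that only just cleared 0. Those of Tnrc6b were 0.18 (0.065 to 0.29) and 0.24 (0.14 to 0.35). Those of Tnrc6c were -0.063 and -0.0024, both with an interval that held 0. None of the 3 passed the edgeR test, with adjusted p-values of 0.734, 0.679 and 0.947 for Tnrc6a, Tnrc6b and Tnrc6c. Per kilobase, Tnrc6a took 56.2%, 56.2%, 59.4% and 55.9% of the family in E7.5 WT, E8.5 WT and then KO1 and KO2, and Tnrc6b 12.8%, 16.3%, 16.7% and 18.2%.

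**Figure D3:**
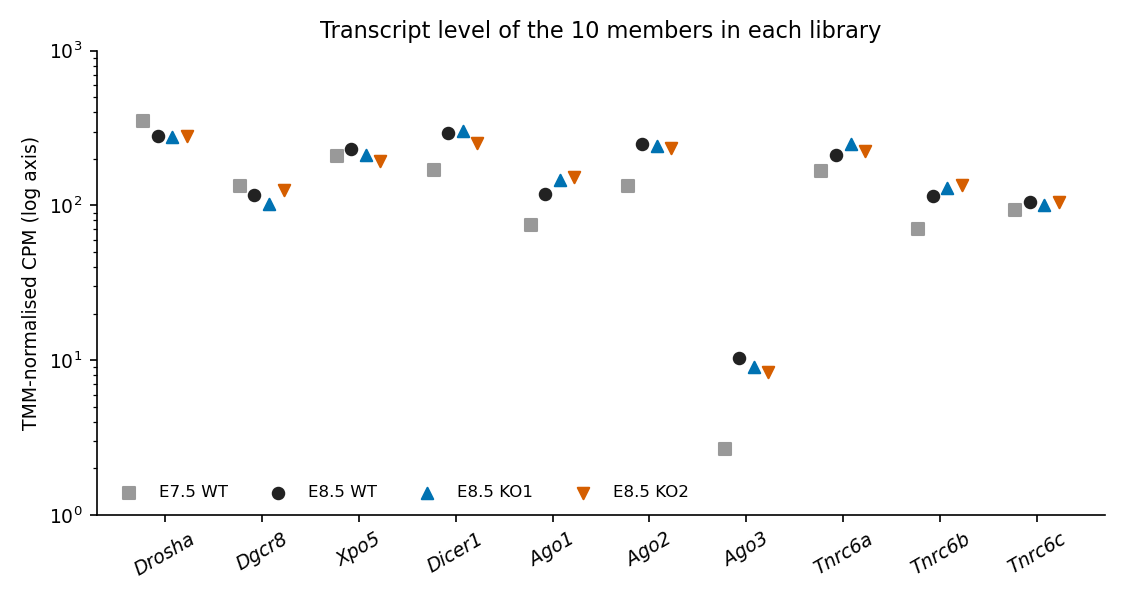
Normalised CPM (log axis) of each of the 10 members in the 4 libraries, 1 point per library. Drosha was highest in E7.5 WT and Dicer1, Ago1, Ago2, Ago3 and Tnrc6b were lowest there, while the 3 libraries of E8.5 lay close together for most members.

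The comparison of the WT stages asked how the same genes differed between E7.5 and E8.5 in embryos with DDX6. With 1 library a stage, these differences have no replicate check. Of the members, 1 (Ago3, log2 difference 1.87, 95% counting interval 1.37 to 2.55) passed a log2 difference of 1, beside 20% of all genes tested. The log2 differences of E8.5 WT from E7.5 WT were 0.92 for Ago2, 0.79 for Dicer1, 0.71 for Tnrc6b, 0.66 for Ago1, 0.36 for Tnrc6a, 0.19 for Tnrc6c and 0.16 for Xpo5. Those of the Microprocessor genes had the opposite sign, -0.31 for Drosha and -0.18 for Dgcr8. The 7 members that act in the cytoplasm and Xpo5 were all higher in E8.5 WT than in E7.5 WT, and the Microprocessor pair was lower. Other genes of the pathway, listed below, went both ways. Of 13 partners in processing and loading the counting interval lay above 0 for 5 and below 0 for 7. Of 27 factors of silencing and decay it lay above 0 for 14 and below 0 for 8. Over all genes tested, 34.1% lay above and 33.4% below.

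The counting interval of the stage difference lay above 0 for 8 members, as for 34.1% of all genes tested, and below 0 for 2, as for 33.4%. The median over the members was 0.51, against -0.018 over all genes.

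Against E7.5 WT, from which the KO libraries differ in both stage and genotype, Ago3 alone passed a log2 change of 1 in both KO libraries (1.695 in KO1 and 1.59 in KO2), beside 9.69% of all genes. Ago1 stood at 0.97 and 1.03, on either side of that threshold. Set against E7.5 WT, the edgeR test called 0 members and 0% of all genes at an adjusted p under 0.05, the smallest adjusted p over all genes being 0.12. At an unadjusted p under 0.05 it called 7 members, 6 higher (Dicer1, Ago1, Ago2, Ago3, Tnrc6a and Tnrc6b) and 1 lower (Drosha), beside 24.6% of all genes. This comparison shares the KO libraries with the first and E7.5 WT with the second, so it is no independent evidence of either.

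The 5 members with a stage difference above 0.5 had in KO2 log2 values above E7.5 WT of 0.57 (Dicer1), 1.03 (Ago1), 0.82 (Ago2), 1.59 (Ago3) and 0.95 (Tnrc6b), next to 0.82, 0.97, 0.86, 1.695 and 0.89 in KO1. In KO2 the epiblast and streak markers summed to 898 CPM, near the 926 CPM of E7.5 WT. Single markers differed both ways, with T at 122 CPM in KO2 against 324 in E7.5 WT and Eomes at 257 against 112. Nanog stood at 72.4 against 23.3, Utf1 at 112 against 149 and Pou5f1 at 335 against 318. KO2 also had the highest sums of trophoblast and of decidua markers of the 4 libraries. Within these lists Ascl2 and Prl3c1 were highest in E7.5 WT instead, with log2 changes of KO2 from E7.5 WT of -2.71 and -2.37. The other markers of both lists that had reads were highest in KO2. These levels were read in whole embryos, in which fewer cells of a type and less RNA per cell cannot be told apart.

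**Figure D4:**
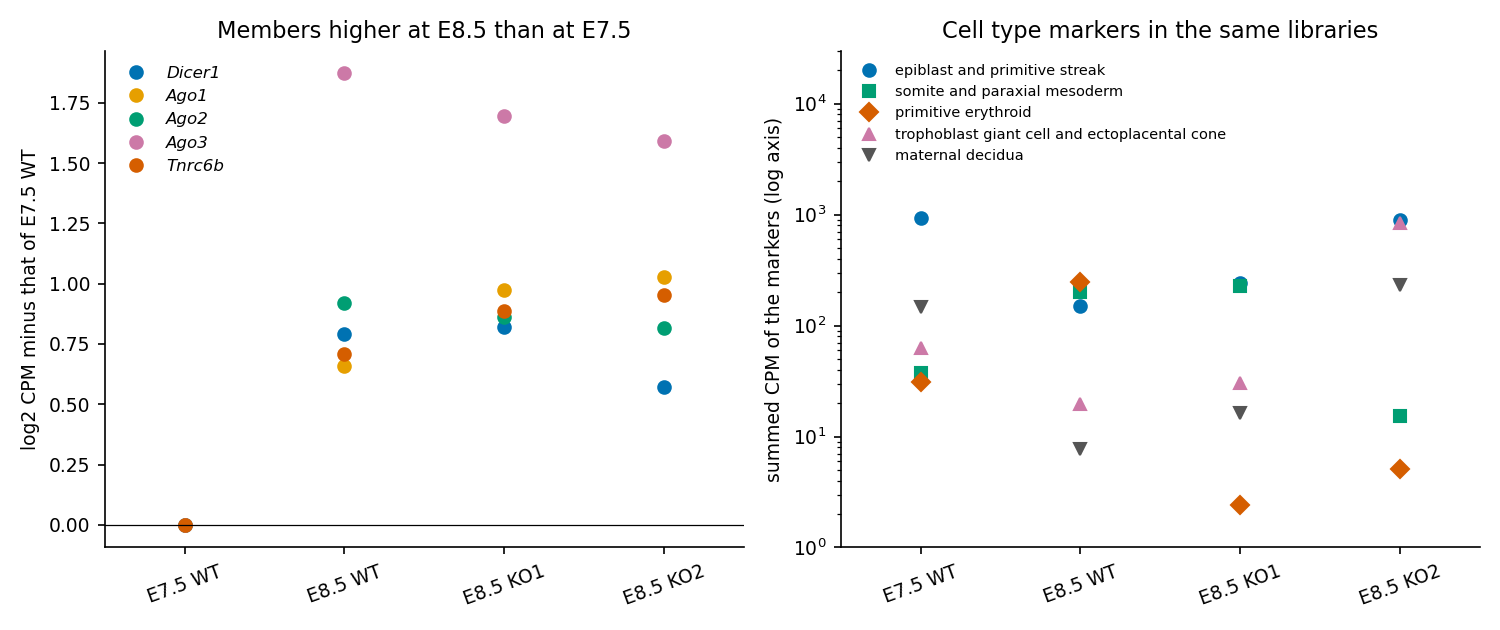
Left, log2 CPM minus that of E7.5 WT for the 5 members with a stage difference above 0.5, 1 point per library. Right, summed CPM of the markers of 5 cell types (log axis) in the same libraries. The members in KO2 lie 0.57 to 1.59 above E7.5 WT. The epiblast and streak sum is 898 in KO2 and 926 in E7.5 WT, and the single markers within that sum differ between them. The trophoblast sum is 835 in KO2 and 63.2 in E7.5 WT.

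Levels of different genes were compared as CPM per kilobase of exon. In every library Drosha was highest (59.1, 47.7, 46.8 and 47.3 in E7.5 WT, E8.5 WT and then KO1 and KO2), Xpo5 second (30.5, 34.0, 30.9 and 28.3) and Ago3 lowest (0.162, 0.622, 0.549 and 0.510). Below Xpo5, in the KO libraries, came Tnrc6a (19.6 and 17.7), Ago1 (18.1 and 18.8), Ago2 (17.2 and 16.7), Dicer1 (18.0 and 15.1) and Dgcr8 (13.3 and 16.3). The KO range of Tnrc6a overlapped those of Ago1 and Dicer1, and the range of Dicer1 overlapped those of Ago2 and Dgcr8, so these neighbours were not resolved by the spread of the KO libraries. On these lengths Ago1 lay above Ago2, Dicer1 and Dgcr8 in both KO libraries, with no overlap of their ranges. Likewise Tnrc6a lay above Ago2 and Dgcr8, and Ago2 lay above Dgcr8. Tnrc6c (7.88 and 8.22) and Tnrc6b (5.50 and 5.76) followed, with ranges apart from those above and from each other. The length is that of all annotated exons of a gene together, which lowers the value of a gene whose longer exons are seldom used. RefSeq-matched transcripts alone gave 4.32 kilobases for Dgcr8 instead of 7.696, and 9.851 for Dicer1 instead of 16.75. For Tnrc6a they gave 8.183 instead of 12.706. For Ago1 and Ago2 the length changed less, to 7.236 from 8.12 and to 13.8 from 14.031. The order of Dgcr8, Dicer1 and Tnrc6a among these neighbours thus depends on the length model and is not settled here.

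Ago3 had the widest range of log2 CPM over the 4 libraries, 1.87. Among 11222 genes with a mean of at least 50 reads, the 5 nearest to it by Euclidean distance of centred log2 CPM over the 4 libraries were Nhs (0.032), Trove2 (0.086), Tenm4 (0.10), Pdpr (0.10) and Bmpr2 (0.11). Picked for likeness to Ago3, all 5 were bound to have their lowest level in E7.5 WT. Bmpr2, a receptor of bone morphogenetic proteins, had 264 reads there against 995 (E8.5 WT), 656 (KO1) and 835 (KO2). With 4 libraries such a likeness has few points behind it.

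Other genes of the pathway were taken as lists of 13 partners in processing and loading, 12 factors of miRNA stability and 27 factors of silencing and decay. All 52 passed the minimum of 10 reads. Against E8.5 WT, 1 of the 52 passed a log2 change of 1 in both KO libraries, Ddx6 itself. Their median log2 changes were -0.10 in KO1 and -0.069 in KO2. The counting interval lay below 0 in both KO libraries for 20 and above 0 in both for 2, where 15.2% of all genes tested lay below and 14.2% above. At an unadjusted p under 0.05 the edgeR test gave 6 genes (Ddx6, Lin28a, Lin28b, Pabpc1, Gigyf2 and Mov10), beside 7.36% of all genes. None had an edgeR adjusted p under 0.05, the smallest being 0.172 for Ddx6, whereas DESeq2 called Ddx6 (adjusted p 3.9e-26) and no other gene of the lists.

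Among the silencing factors, Pabpc1, the poly(A)-binding protein that TNRC6 proteins contact, had 3541, 2720.0, 1784 and 1924 CPM in E7.5 WT, E8.5 WT and then KO1 and KO2, with log2 changes from E8.5 WT of -0.61 and -0.50. Both KO libraries lay below both WT libraries. Gigyf2, a translational repressor partner, had 167, 154, 119 and 121 CPM, also lower in both KO libraries than in either WT library. Mov10, a helicase bound to Argonaute, went the other way, with 71.9, 40.9, 58.0 and 68.2 CPM and log2 changes from E8.5 WT of 0.50 and 0.74, and its KO levels lay between the WT stages.

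None of the deadenylase and decapping genes, which act after TNRC6 and beside DDX6, passed the edgeR test at an unadjusted p under 0.05. The catalytic subunit genes Cnot6 and Cnot7 had log2 changes of -0.28 and -0.33, and of -0.19 and -0.22, in KO1 and KO2. Their paralogs differed less, with -0.0012 and 0.088 for Cnot6l and -0.075 and -0.021 for Cnot8. The decapping enzyme Dcp2 had -0.20 and -0.20, and its cofactors Edc3 and Edc4 had -0.030 and 0.025, and -0.079 and 0.054. Dcp1a had -0.26 and -0.24, with both counting intervals below 0. Pan2 had -0.26 and -0.46, and Pan3 had 0.043 and 0.13. The log2 differences between the WT stages also went both ways, with 0.9996 for Cnot6, 0.91 for Cnot7, 0.41 for Cnot6l and 1.13 for Dcp2 against -0.18 for Cnot8, -0.18 for Edc3 and -0.19 for Edc4.

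Among the stability factors, Lin28a and Lin28b encode proteins that block the maturation of let-7. Lin28a had 1001, 1326, 1029 and 854 CPM and Lin28b 62.6, 162, 112 and 113 CPM in E7.5 WT, E8.5 WT and then KO1 and KO2. KO1 and KO2 lay below E8.5 WT for both genes, with log2 changes of -0.37 and -0.63 for Lin28a and -0.53 and -0.52 for Lin28b. The edgeR test gave unadjusted p-values of 0.0451 and 0.0117, and neither passed after adjustment. Zcchc11, a terminal uridylyltransferase that acts with LIN28, had log2 changes of 0.029 and -0.24.

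Among the processing partners none passed an unadjusted p under 0.05. Tarbp2 and Prkra, which encode the double-stranded RNA-binding partners of DICER1, had log2 changes from E8.5 WT of -0.22 and 0.13, and of -0.068 and -0.37, in KO1 and KO2. Between the WT stages 6 of the 52 genes passed a log2 difference of 1 upward (Xrn1, Lin28b, Zcchc11, Dcp2, Trim71 and Fmr1), a share near the 12.2% of all genes that did so. Hsp90aa1, which encodes a chaperone used in Argonaute loading, passed it downward (-1.02), as did 7.82% of all genes.

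**Figure D5:**
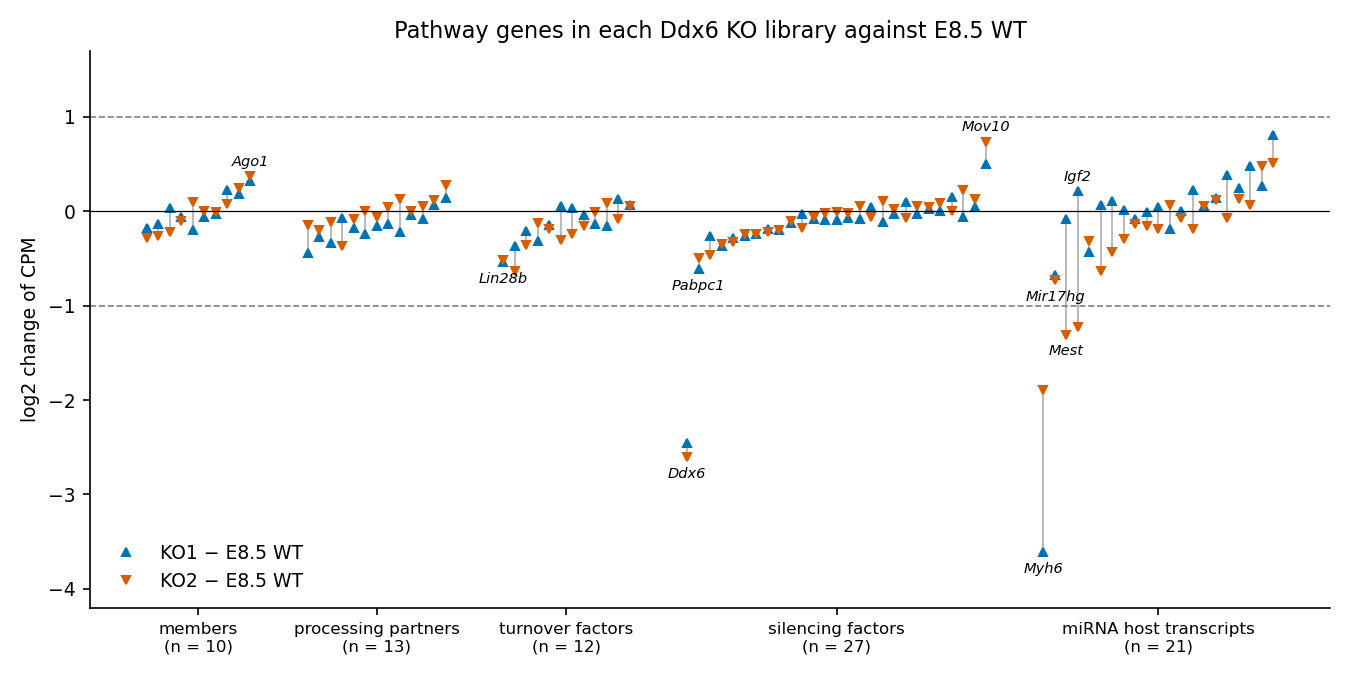
Log2 change of normalised CPM (vertical axis) against E8.5 WT in KO1 and KO2, joined by a line for each gene, for the members, the 3 lists of other pathway genes and the transcripts that carry miRNA hairpins, sorted by mean change within a list. Dashed lines mark changes of -1 and 1. Outside the host transcripts Ddx6 alone passes them.

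The substrates of the Microprocessor can be read in part from the transcripts that carry miRNA hairpins. Of 24 listed host genes with a hairpin in their annotated span, 21 passed the minimum of 10 reads. Of these, 1 passed a log2 change of 1 in both KO libraries, a share near the 5.22% of all genes. It was Myh6 (-3.61 and -1.89), a cardiac myosin gene with a hairpin in an intron. The 5 cardiac muscle markers, Myh6 among them, summed to 10.6, 217, 43.2 and 26.9 CPM in E7.5 WT, E8.5 WT and then KO1 and KO2, and their part in that result was not tested. Igf2 and Mest, also hosts, were lower than E8.5 WT past 1 in KO2 alone (-1.23 and -1.31), with 0.21 and -0.078 in KO1.

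Mir17hg, the noncoding precursor of the miR-17 to miR-92 cluster (chromosome 14, 115042879 to 115046727, plus strand), encodes no known protein. It had 544, 1201, 508 and 717 reads, or 45.6, 97.4, 60.8 and 58.9 CPM, in E7.5 WT, E8.5 WT and then KO1 and KO2. Both KO libraries lay between the WT stages and close to each other, with log2 changes from E8.5 WT of -0.68 (95% counting interval -0.83 to -0.53) in KO1 and -0.72 (-0.86 to -0.59) in KO2. The edgeR test gave an adjusted p of 0.663 (0.00637 before adjustment).

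The GENCODE model of Mir17hg holds 6 hairpins in its exons. The RefSeq model is shorter and holds the whole miR-92a hairpin (Mir92-1) alone, and how much of the longer model the counting covered was not tested. Their mature miRNAs are shown because they are the products that DROSHA, DGCR8 and DICER1 are known to release from this transcript, with sequences from RefSeq (GRCm38.p6, chromosome 14, plus strand, from 115043684 at the start of miR-17-5p to 115044496 at the end of miR-92a-3p).
mmu-miR-17-5p: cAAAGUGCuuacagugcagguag
mmu-miR-20a-5p: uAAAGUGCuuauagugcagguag
mmu-miR-18a-5p: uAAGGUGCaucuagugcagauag
mmu-miR-19a-3p: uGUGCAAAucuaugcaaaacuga
mmu-miR-19b-3p: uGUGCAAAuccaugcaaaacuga
mmu-miR-92a-3p: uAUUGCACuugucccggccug
The 6 sequences carry 4 seeds, of which miR-17-5p and miR-20a-5p share AAAGUGC and miR-19a-3p and miR-19b-3p share GUGCAAA. The separate rows of these hairpins held a total of 1, 4, 3 and 6 reads for E7.5 WT, E8.5 WT and then KO1 and KO2. Mature miRNAs lack a poly(A) tail and were not measured in these libraries, so neither the precursor level nor the hairpin rows give the level of the miRNAs.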

How the data were processed

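The authors trimmed reads with Cutadapt 2.8, mapped them to mm10 with HISAT2 2.1.0 and counted them per gene over exons, by strand, with featureCounts 2.0.0. They deposited raw read counts with no normalization. Library totals were 12095555 and 12562640 reads in the WT libraries (E7.5, then E8.5) and 8198402 and 12008252 in KO1 and KO2. Groups were taken from the sample labels.

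Counts were normalised by TMM in edgeR 4.0.16 (R 4.3.3). Genes with at least 10 reads in at least 1 library were kept (14393). Changes are differences of log2 CPM with a prior count of 2. Two-sided edgeR quasi-likelihood tests over all kept genes used Benjamini-Hochberg adjustment, with 1 residual degree of freedom. DESeq2 1.42.0 (Wald test) was the alternative. Counting intervals are exact Clopper-Pearson 95% intervals of read ratios. They leave out every other source of error, since PCR copies of a molecule cannot be recognised in these reads. The threshold rule and the edgeR and DESeq2 fits were run on simulated counts. Those had a smaller spread than these data, so they do not give the power of the fits here. The counting interval was checked against an exact binomial test. The remaining steps had no such test. Exon lengths and positions came from GENCODE (GRCm38), which held 23376 of 24421 symbols, and figures from matplotlib 3.10.9. Alternatives were other scalings, filters, prior counts, thresholds and length models, the last added after the data were seen, and leaving out each KO library.

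The genes named are the members, Ddx6, the genes of the lists of other pathway genes, host transcripts and cell type markers, and the 5 genes nearest to the member of widest range. The members and lists were chosen with earlier results of these data known.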

Additional observations from a re-analysis of the deposited data

How the results depend on the processing

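No member was called against E8.5 WT under any scaling, filter, prior count or threshold tried or without either KO library, and none passed edgeR at an adjusted p under 0.05 under any scaling, filter or choice of libraries, or DESeq2. Over all genes edgeR called 0, or 8 with no filter, and DESeq2 31. Of 140 alternative values for single members, 127 moved by less than the spread between the KO libraries. Values without 1 KO library always fall within that spread, so they were bound to be among the 127. Ago3 against E7.5 WT was the only member called, and it kept its sign under every alternative. Small changes could switch sign, as that of Drosha against E8.5 WT did, from -0.021 to 0.030 with plain CPM. Outside the leave-one-out values the largest move was 0.051 on the log2 scale. Members called against E7.5 WT numbered 1, but 2 with plain CPM (Ago1 joining Ago3), 4 at a 1.5-fold threshold, and between 1 and 2 when either KO library was left out, 2 of them without KO1. Between the WT stages the count of 1 became 5 at a 1.5-fold threshold. The median change of the members against E8.5 WT, -0.025 as the mean of the KO libraries, was 0.026 with plain CPM, which also moved the median of all genes to 0.055 in KO1 and 0.050 in KO2. The mean share of Ago2 in the KO libraries, 46.7% per kilobase, was 59.6% by reads with no length and 44.3% with RefSeq-matched exons alone, and that of Tnrc6a, 57.7%, was 50.03% by reads. The unadjusted edgeR call of Ago1 was lost with DESeq2 size factors, with no filter and with the DESeq2 test. With 2 KO libraries and 1 WT library a stage, tests rest on 1 residual degree of freedom. No paired analysis was possible because each WT stage had 1 library and the groups share fewer than 2 replicate numbers.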

Other observations

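Of 1174 rows of the table named as miRNA hairpins, 899 held 0 reads in every library and 16 reached 10 reads in any. The 5 rows of the Mir302 and Mir367 cluster, whose miRNAs are known from pluripotent cells, held a total of 20, 3, 3 and 23 reads for E7.5 WT, E8.5 WT and then KO1 and KO2, so KO2 stood with E7.5 WT and KO1 with E8.5 WT. Only 1 of these 5 rows reached 10 reads in any library, so the totals rest on few reads. The summed epiblast and primitive streak markers (926, 150, 241 and 898 CPM) were likewise higher in E7.5 WT and KO2 than in E8.5 WT and KO1. Their part in the reads of the hairpins was not tested. Sequences of 2 of the mature miRNAs follow (RefSeq, GRCm38.p6, chromosome 3, plus strand, 127545275 to 127545297 and 127545779 to 127545800), with the seed in capitals.
mmu-miR-302b-3p: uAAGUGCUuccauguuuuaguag
mmu-miR-367-3p: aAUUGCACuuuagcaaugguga
The seed of miR-367-3p is also that of miR-92a-3p of the Mir17hg transcript.

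For some listed host genes the hairpin annotation used here placed no hairpin within the span, which does not show that they carry none. Among these, AU018091 had 405, 9, 5 and 66 reads for E7.5 WT, E8.5 WT and then KO1 and KO2, and Sfmbt2 1564, 441, 307 and 998. Both were highest in E7.5 WT, and in KO2 both lay between the WT stages.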
